A study of Mus musculus with 17 samples.

Results

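The complement genes described here are 34 components, regulators and receptors of the complement system, taken from a list of symbols, in mouse epididymal adipose tissue, the fat depot around the epididymis. All array probes annotated to these symbols, or to older names with the same Entrez ID, were collected, which gave 44 probes for 31 of the 34 genes. After the filter on dim probes, 30 complement genes were tested among 17166 genes in all. Cfd, Clu and Cr1l have no probe under their names in the annotation used and were not analysed here, and the single probe of Cd46 was above background on 0 of 17 arrays. RNA from whole tissue was hybridised to 17 Illumina bead arrays, 1 per sample, in 6 groups of genotype and diet. All mice had the WBB6F1 background, a cross of WB and C57Bl/6, and ate either a high-fat diet (HFD, 60% of kcal from fat) or a low-fat chow (LFD, 6% fat) for 12 weeks, with tissue taken after a 5 h fast. The genotypes were Cpa3+/+ (wild type, 3 arrays on LFD and 2 on HFD), Cpa3Cre/+ (1 Cpa3 allele replaced by Cre, 3 arrays per diet) and KitW/Wv (mutant alleles at both copies of Kit, 3 arrays per diet). As background, Cpa3Cre/+ mice lack mast cells because Cre is toxic to them, whereas KitW/Wv mice lack mast cells and also have defects in other blood lineages, germ cells and pigment cells. Whether every array comes from its own animal is not stated in the labels. The p-values therefore reflect sample-to-sample spread, part of which may be technical. Age is not given.

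Complement is a cascade of proteases and binding proteins that marks surfaces for uptake and can perforate membranes. It starts from antibody or pattern recognition by C1q (classical pathway), from sugar recognition by mannose-binding lectins and ficolins (lectin pathway), or from spontaneous turnover of C3 amplified by factor B and factor D (alternative pathway). All routes meet at C3, whose fragments bind receptors on macrophages, and end in the membrane attack complex of C5b and C6 to C9, while soluble and membrane-bound inhibitors hold the cascade in check on host cells. The liver makes most circulating components, macrophages make C1q, and adipocytes are the main source of factor D.

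Levels are given as log2 normalized intensity, a brightness scale on which 1 unit is a doubling, and levels of different genes are not comparable with each other. Every difference was tested with limma on all 17 arrays together, and a gene passed where its p-value, adjusted over 17166 genes by the Benjamini-Hochberg method, was below 0.05. Cpa3 lay between 7.31 and 8.53 on the 5 wild-type arrays and between 4.09 and 5.20 on the other 12. Its level sets the wild-type arrays apart as labelled, but does not tell Cpa3Cre/+ from KitW/Wv arrays. Kit, whose probe does not tell mutant from wild-type transcript, lay between 6.75 and 8.76 over all 17 arrays. Across arrays 46.9% to 51.7% of probes were above background, with a median deposited intensity of 98.55 to 107.4. An array of wild-type mice on LFD (replicate 3) carried epididymis and testis markers 4.47 above their average on the log2 scale, and skeletal muscle markers stood 1.75 above on Cpa3Cre/+ LFD replicate 2 and 1.66 above on KitW/Wv HFD replicate 1. Adipocyte markers were above background on some arrays of every group, all 10 of 10.

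In wild-type mice on HFD against LFD, 2 of 30 complement genes passed the test, 1 higher (Serping1) and 1 lower (C2), against 4.65% of all genes in either direction, 3.44% higher and 1.21% lower. In Cpa3Cre/+ mice 6 of 30 passed, with C1qa, C1qb, C1qc, Serping1 and Cd93 higher and C2 lower, against 9.09% of all genes in either direction, 5.88% higher and 3.21% lower. In KitW/Wv mice 0 of 30 passed, against 0.00583% of all genes, which is 1 gene. At an unadjusted p below 0.05 limma gave 1 complement gene (Vsig4) and 582 of all genes in KitW/Wv mice. The median difference over the 30 complement genes was 0.37 in wild-type mice (23 of 30 above 0), 0.38 in Cpa3Cre/+ mice (24 of 30) and 0.01 in KitW/Wv mice (16 of 30), while the median over all genes was -0.02, -0.02 and 0.00. Of all genes 47.9%, 47.3% and 50.8% were above 0. Mbl1, Mbl2, Masp2, C8a, C8g, C9, Vtn and Cfi were all above 0 in wild-type and Cpa3Cre/+ mice. As described below, these genes varied together between single arrays, and their part in the medians was not tested. With arrays scaled to equal medians in place of quantile normalization, the median over all genes in Cpa3Cre/+ mice moved by 0.11 and the share of called genes that were higher went from 64.7% to 86.7%. The median over the complement genes there was then 0.64, with none of the 30 changing sign. Whether the diet effect differs between genotypes was tested for each gene as an interaction. For KitW/Wv against Cpa3Cre/+ 2 of 30 complement genes passed (C2 and C1qb), against 2.54% of all genes, 0.449% higher (as C2) and 2.09% lower (as C1qb). For KitW/Wv against wild type 0 of 30 passed, against 0.891% of all genes in either direction and 0.0874% higher, with C2, Serping1 and Cd93 below an unadjusted p of 0.05. For Cpa3Cre/+ against wild type 0 of 30 passed, against 0% of all genes, with 1 complement gene (C1qb) and 687 genes in all below an unadjusted p of 0.05. These comparisons share arrays, so they are not independent of each other.

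**Figure D1:**
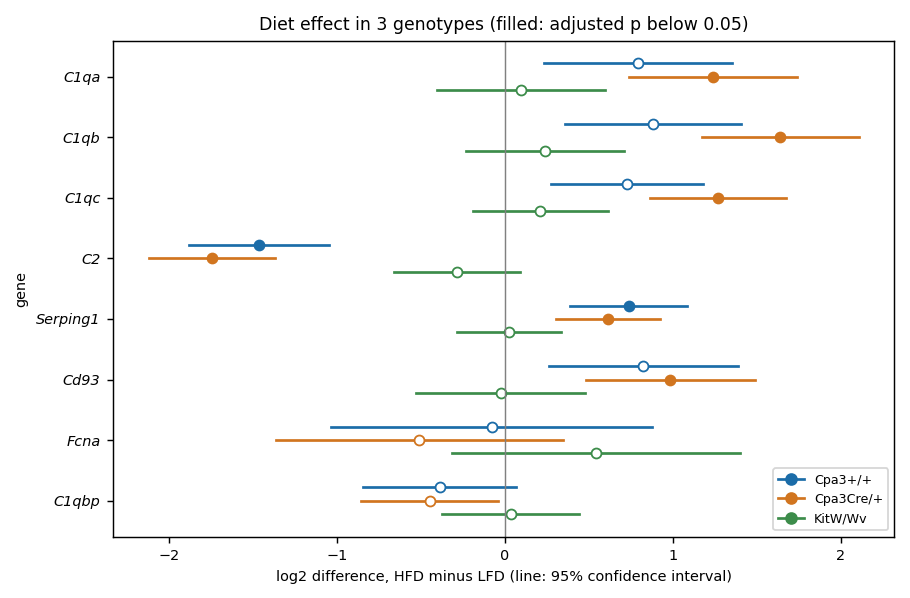
Difference between HFD and LFD (log2 scale, x axis) for the 8 complement genes that passed the test in at least 1 comparison, in 3 genotypes; points are estimates from the fit over 17 arrays, lines are 95% confidence intervals and filled points have an adjusted p below 0.05. For C1qa, C1qb, C1qc, C2, Serping1 and Cd93 the KitW/Wv estimate lies between -0.28 and 0.24, and each of its intervals includes 0.

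C1qa, C1qb and C1qc encode the chains that assemble into C1q, the recognition molecule of the classical pathway, and all 3 rose on HFD in Cpa3Cre/+ mice. C1qb rose the most of the 3. On wild-type arrays C1qb had log2 levels of 11.39, 11.62 and 11.18 on LFD and 12.25 and 12.31 on HFD. On Cpa3Cre/+ arrays C1qb stood at 10.48, 10.75 and 11.33 on LFD and at 12.54, 12.50 and 12.44 on HFD. On KitW/Wv arrays C1qb stood at 11.74, 11.62 and 11.75 on LFD and at 12.38, 11.62 and 11.84 on HFD. The diets did not overlap in wild-type or Cpa3Cre/+ mice and overlapped in KitW/Wv mice, where 1 HFD array was above both wild-type HFD arrays. The difference was 1.64 (SE 0.22, 3.11-fold, adjusted p = 0.00019) in Cpa3Cre/+ mice, 0.88 (SE 0.24, adjusted p = 0.0557) in wild-type mice and 0.24 (SE 0.22, adjusted p = 1) in KitW/Wv mice. The diet effect on C1qb in KitW/Wv mice was 1.40 smaller than in Cpa3Cre/+ mice on the log2 scale (-1.40, SE 0.31, adjusted p = 0.0243). That interaction was lost in 8 of 20 other settings, with adjusted p up to 0.0687, 7 of them with 1 array left out (Cpa3Cre/+ HFD replicates 1 and 2 and LFD replicate 1, KitW/Wv HFD replicates 2 and 3 and LFD replicates 1 and 3).

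C1qc followed the same order of groups. Its log2 levels on wild-type arrays were 11.25, 11.42 and 11.21 on LFD and 11.96 and 12.07 on HFD. On Cpa3Cre/+ arrays C1qc stood at 10.52, 10.99 and 11.19 on LFD and at 12.08, 11.96 and 12.46 on HFD. KitW/Wv arrays had C1qc at 11.64, 11.45 and 11.51 on LFD and at 12.01, 11.55 and 11.67 on HFD. As for C1qb, the diets were separate in wild-type and Cpa3Cre/+ mice and overlapped in KitW/Wv mice. The difference in C1qc was 1.27 (SE 0.19, 2.41-fold, adjusted p = 0.000491) in Cpa3Cre/+ mice, 0.73 (SE 0.21, adjusted p = 0.0694) in wild-type mice and 0.21 (SE 0.19, adjusted p = 1) in KitW/Wv mice. Its interaction between KitW/Wv and Cpa3Cre/+ mice was -1.06 (SE 0.27) and missed the threshold at an adjusted p of 0.0521.

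C1qa showed a wider spread between arrays. On wild-type arrays C1qa had log2 levels of 9.20, 9.49 and 9.23 on LFD and 9.96 and 10.24 on HFD. On Cpa3Cre/+ arrays it stood at 8.65, 8.95 and 9.37 on LFD and at 10.06, 9.96 and 10.66 on HFD. The KitW/Wv arrays had C1qa at 9.83, 9.64 and 9.91 on LFD and at 10.17, 9.47 and 10.02 on HFD. The lowest of the 6 KitW/Wv arrays was an HFD array. The difference in C1qa was 1.24 (SE 0.23, 2.36-fold, adjusted p = 0.00349) in Cpa3Cre/+ mice, 0.79 (SE 0.26, adjusted p = 0.11) in wild-type mice and 0.09 (SE 0.23, adjusted p = 1) in KitW/Wv mice. The call in Cpa3Cre/+ mice was lost when only those 6 arrays were fitted (adjusted p = 0.0528). The 3 C1q genes varied together over the 17 arrays, with Pearson r between 0.93 and 0.97. After each group's mean was removed, r was 0.70 for C1qa with C1qb, 0.90 for C1qa with C1qc and 0.76 for C1qb with C1qc. These arrays share their tissue samples, so r describes the pieces of tissue and has no test.

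In wild-type mice all 3 C1q genes missed the threshold under quantile normalization, with 2 HFD arrays. With median scaling all 3 passed there, and with the authors' normalized values C1qb and C1qc did, so the wild-type call depends on the scaling. On LFD the KitW/Wv arrays lay above all 3 Cpa3Cre/+ arrays for each C1q gene, by 0.80 for C1qa, 0.85 for C1qb and 0.63 for C1qc. The adjusted p-values of these LFD differences were 0.891, 0.712 and 0.92.

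C1qb and C1qc are neighbouring genes on the minus strand of chromosome 4, and RefSeq start sites were at hand for both, so the stretches just before their starts are shown to let the upstream sequence of genes that varied together be set side by side. Each is the 250 bases before the start in GRCm38.p6, chr4:136886201-136886450 for C1qb and chr4:136892915-136893164 for C1qc, read 5′ to 3′ on the gene's strand. Capitals mark GAGGAA, the purine-rich core that the myeloid factor PU.1 and other ETS proteins bind, or its reverse complement.
C1qb: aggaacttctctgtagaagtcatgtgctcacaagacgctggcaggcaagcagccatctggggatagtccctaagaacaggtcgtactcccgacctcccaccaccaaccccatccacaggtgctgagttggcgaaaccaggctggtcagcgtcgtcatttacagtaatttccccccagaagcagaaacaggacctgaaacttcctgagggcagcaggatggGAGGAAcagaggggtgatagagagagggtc
C1qc: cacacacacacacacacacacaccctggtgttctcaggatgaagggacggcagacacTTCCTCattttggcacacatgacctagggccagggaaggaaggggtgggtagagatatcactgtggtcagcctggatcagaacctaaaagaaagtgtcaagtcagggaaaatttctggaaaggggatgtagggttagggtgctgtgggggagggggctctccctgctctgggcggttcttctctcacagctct
The match lies 30 to 25 bases before the start on the printed strand in C1qb, and 193 to 188 bases before the start on the opposite strand in C1qc. GAGGAA on either strand is in 23.1% of 27025 mouse promoter windows of the same length and in 5 of the 25 complement genes that have one (Fcna, Cd59a, C1qb, C1qc and Vsig4), so it is a common string and a match is a description only. The other motifs searched on both strands, TGACTCA (4.43% of windows), TATAAA (13%), GAAA repeated after a gap of 2 bases (3.04%) and TTGCGCAA (0.17%), are in neither of these windows. GAGGAA shares no overlap with another searched motif there. C1qa, C2, Serping1 and Cd93 have no entry in the promoter table used.

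Macrophages are the known main source of C1q, and their markers had higher group levels on HFD in wild-type and Cpa3Cre/+ mice, as C1q did. Of 12 macrophage markers 7 rose on HFD in wild-type mice (median over the 12 of 1.42), 11 rose in Cpa3Cre/+ mice (median 2.01) and 0 in KitW/Wv mice (median 0.09). Their summed intensity went from 9629 to 10480 on wild-type LFD arrays to 22930 to 24190 on HFD arrays, and from 6781 to 9215 to 28430 to 32610 in Cpa3Cre/+ mice. In KitW/Wv mice the sum was 11560 to 12750 on LFD and 11030 to 15660 on HFD. Single arrays did not all match. KitW/Wv HFD replicate 1 had C1qb at 12.38, above both wild-type HFD arrays, with a macrophage sum of 15660, below both. Itgax, which encodes CD11c, was above background on no array of the 3 LFD groups and of KitW/Wv on HFD, and every other marker of the list was above background on some array of each group. The 7 and the 11 include Itgax, which passed the filter on dim probes only through the wild-type and Cpa3Cre/+ HFD arrays. The direction of its change was thus set by the filter and adds nothing to these counts. Of all genes 3.44% rose in wild-type, 5.88% in Cpa3Cre/+ and 0.00583% in KitW/Wv mice. The part of macrophage content in the C1q differences was not tested. In whole tissue, a change in the number of cells of a type and a change in RNA per cell cannot be told apart, here and for every gene below.

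C2 encodes the protease that C1s and MASP2 cleave to form the C3 convertase of the classical and lectin pathways, and it went the opposite way from C1q. On wild-type arrays its log2 levels were 11.91, 11.73 and 11.55 on LFD and 10.32 and 10.21 on HFD. On Cpa3Cre/+ arrays C2 stood at 11.33, 11.37 and 11.82 on LFD and at 9.60, 9.67 and 10.02 on HFD. For KitW/Wv arrays the C2 levels were 11.64, 11.46 and 11.42 on LFD and 11.01, 11.23 and 11.43 on HFD. The 5 HFD arrays of wild-type and Cpa3Cre/+ mice are the 5 lowest of all 17, and every KitW/Wv array lies above them. C2 fell by 1.46 in wild-type mice (SE 0.20, 2.76-fold, adjusted p = 0.000585) and by 1.74 in Cpa3Cre/+ mice (SE 0.18, 3.35-fold, adjusted p = 1.54e-05). In KitW/Wv mice the difference was -0.28 (SE 0.18, 95% confidence interval -0.66 to 0.09, adjusted p = 1).

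Between genotypes on HFD, C2 was 0.96 higher in KitW/Wv than in wild-type mice (SE 0.20, adjusted p = 0.0193) and 1.47 higher than in Cpa3Cre/+ mice (SE 0.18, adjusted p = 0.000163). On LFD the genotypes differed by no more than 0.23 and none of these differences passed. The diet effect on C2 differed between KitW/Wv and Cpa3Cre/+ mice by 1.46 (SE 0.25, adjusted p = 0.0047). Between KitW/Wv and wild-type mice the diet effect differed by 1.18 (SE 0.26) and missed the threshold at an adjusted p of 0.0524. The diet calls of C2, its call against Cpa3Cre/+ mice on HFD and its interaction with Cpa3Cre/+ mice held under every setting run. These settings included each array left out, and the 3 arrays with epididymis and testis or skeletal muscle markers left out together. The call against wild-type mice was lost without either wild-type HFD array (adjusted p = 0.152 and 0.175), without KitW/Wv HFD replicate 3 (0.0869) and when only the groups compared were fitted (0.0513). Of 10 adipocyte markers 1 rose in wild-type mice, 1 rose and 2 fell in Cpa3Cre/+ mice and 0 passed in KitW/Wv mice. Of all genes 3.44% rose and 1.21% fell in wild-type mice, and 5.88% rose and 3.21% fell in Cpa3Cre/+ mice. All 10 markers were above background in every group. The sum over 10 markers was 61960 to 64270 on wild-type LFD arrays and 67970 to 68230 on HFD arrays, 49340 to 68690 and 67350 to 73230 in Cpa3Cre/+ mice, and 63380 to 70040 and 66240 to 71110 in KitW/Wv mice. The part of cell composition in the fall of C2 was not tested.

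**Figure D2:**
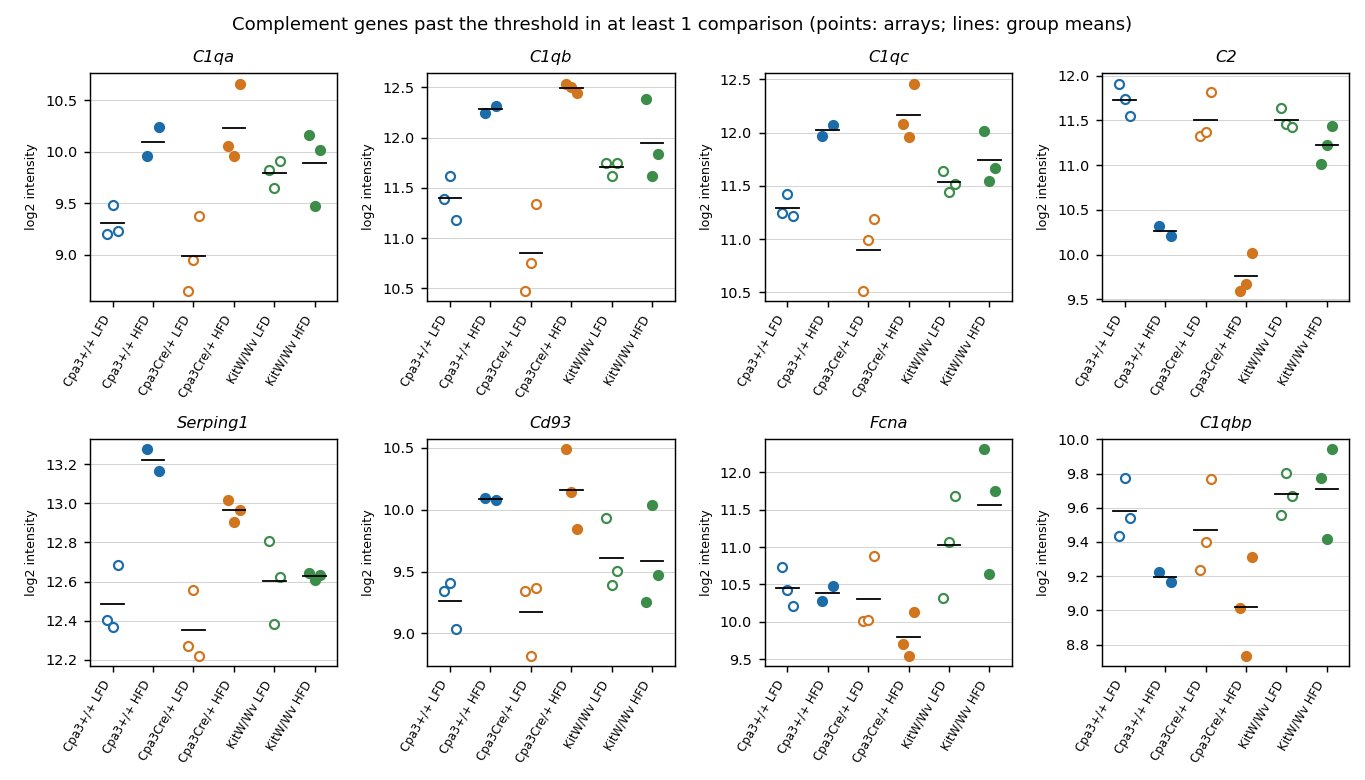
Log2 normalized intensity (y axis, a separate range for each gene) of the 8 complement genes that passed the test in at least 1 comparison, in the 6 groups of genotype and diet; each point is 1 array and each line a group mean. For C2 the 5 HFD arrays of Cpa3+/+ and Cpa3Cre/+ mice lie between 9.60 and 10.32, and all other arrays between 11.01 and 11.91.

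The other classical genes were C1ra, a protease bound to C1q, and C4b, the precursor that C1s cleaves to start the convertase. C4b had log2 levels of 10.71 to 12.16 over all arrays and did not pass in any comparison. On HFD C4b was lower in KitW/Wv mice, at 11.19 ± 0.20 (SD, n = 3), than in wild-type mice at 12.11 ± 0.03 (SD, n = 2), without overlap, at an adjusted p of 0.178. Its other probes gave -0.53 and -0.79 for the diet difference in Cpa3Cre/+ mice where the brightest probe gave 0.42, so the C4b probes disagree in sign. C4b has a near-identical neighbour, C4a, and C1ra has C1rb, so signals of these genes may be mixed. C1ra was above background on 3 of 17 arrays, between 4.15 and 4.65 throughout, and no difference in it was called.

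The lectin pathway genes were the ficolin Fcna, the mannose-binding lectins Mbl1 and Mbl2, and their proteases Masp1 and Masp2. Fcna, a sugar-binding recognition molecule that mouse macrophages of liver and spleen make, was higher in KitW/Wv than in Cpa3Cre/+ mice on HFD. Wild-type arrays had Fcna at log2 levels of 10.74, 10.42 and 10.22 on LFD and 10.28 and 10.48 on HFD. On Cpa3Cre/+ arrays Fcna stood at 10.01, 10.03 and 10.88 on LFD and at 9.70, 9.54 and 10.13 on HFD. On KitW/Wv arrays Fcna stood at 10.32, 11.07 and 11.68 on LFD and at 12.31, 10.64 and 11.74 on HFD. On HFD all 3 KitW/Wv arrays lay above all arrays of the other genotypes, the nearest pair being 10.64 and 10.48, while on LFD the genotypes overlapped. In that diet Fcna was 1.77 higher in KitW/Wv than in Cpa3Cre/+ mice (SE 0.40, 3.42-fold, adjusted p = 0.0135) and 1.19 higher than in wild-type mice (SE 0.45, adjusted p = 0.219). On LFD the differences were 0.72 and 0.57, with adjusted p-values of 1 and 0.999.

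The highest Fcna array, KitW/Wv HFD replicate 1, was also the one with the highest B cell and T and NK cell markers, 2.20 and 1.75 above their averages. Of 6 B cell markers 2 could be tested and 1 was higher in KitW/Wv than in Cpa3Cre/+ mice on HFD, as were 2 of 5 tested T and NK cell markers. The summed intensity of the B cell markers on HFD was 198.8 to 1213 in KitW/Wv mice, 67.63 to 91.38 in wild-type and 61.76 to 89.8 in Cpa3Cre/+ mice. For the T and NK cell markers the sums were 275.1 to 1184, 189.4 to 226.6 and 143.7 to 394. Ms4a1 was above background on no HFD array of wild-type or Cpa3Cre/+ mice. Without that array and the 2 others with markers of other tissues, the Fcna difference was 1.40 (SE 0.41, adjusted p = 0.0578). It was also lost without KitW/Wv HFD replicate 1 alone (adjusted p = 0.0606) or replicate 3 (0.0603), and without Cpa3Cre/+ HFD replicate 1 (0.0503) or 2 (0.0652). Most macrophage markers were lower in this comparison. Of 12, 8 passed as lower in KitW/Wv than in Cpa3Cre/+ mice on HFD and 0 as higher, with a median of -1.475. Of all genes 4.87% passed as lower and 3% as higher in this comparison. Among the 8 markers was Itgax, which was not above background on KitW/Wv HFD arrays. Its direction was set by the filter on dim probes, so Itgax adds nothing to that count. Neutrophil and red blood cell markers also differed in this comparison. Of 6 tested neutrophil markers 2 were higher in KitW/Wv than in Cpa3Cre/+ mice on HFD and 0 lower, with a median of -0.29 and a highest difference of 2.38. Their sums on HFD were 1504 to 1606 in KitW/Wv, 1194 to 1996 in Cpa3Cre/+ and 2631 to 3146 in wild-type mice. None of 4 tested red blood cell markers passed, but all 4 had higher means, with a median of 1.71 and sums of 34840 to 46320 in KitW/Wv, 9409 to 37310 in Cpa3Cre/+ and 38660 to 39890 in wild-type mice. Every marker of these last lists was above background on some array of each group. The part of these cells in the Fcna difference was not tested.

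Mbl1, Mbl2, Masp1 and Masp2 did not pass in any comparison and were dim. Mbl2 was above background on 10 of 17 arrays and ranged from 4.15 to 7.27, Mbl1 on 12 and from 4.13 to 7.18, Masp1 on 10 and from 4.14 to 5.91, and Masp2 on 16 and from 4.17 to 7.60. On HFD Mbl2 was at 4.75 ± 0.85 (SD, n = 3) in KitW/Wv mice and at 6.74 ± 0.46 (SD, n = 3) in Cpa3Cre/+ mice, a difference of -1.99 (SE 0.74, adjusted p = 0.126). The other kept Masp1 probe gave -0.30 for the diet difference in Cpa3Cre/+ mice where the standing probe gave 0.25, neither past the threshold.

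C3 is the hub of the cascade, factor B (Cfb) the protease of the alternative convertase and properdin (Cfp) the protein that stabilises it. All 3 genes were measured on every array and 0 of 3 passed in any comparison. C3 had group means of 12.30 to 12.80, and its diet difference was 0.21 in wild-type (SE 0.30), 0.50 in Cpa3Cre/+ (SE 0.27) and -0.01 in KitW/Wv mice (SE 0.27). Cfb is a homologue and chromosomal neighbour of C2. Its diet difference was 0.78 in wild-type mice (95% confidence interval 0.00 to 1.55, adjusted p = 0.287) and 0.73 in Cpa3Cre/+ mice (0.04 to 1.42, adjusted p = 0.209). Cfb in KitW/Wv mice stood at 8.61 on both diets, a difference of 0.00 (-0.69 to 0.69). Cfp differed by 0.27, 0.30 and -0.04 between the diets in wild-type, Cpa3Cre/+ and KitW/Wv mice, with adjusted p-values of 0.517, 0.355 and 1.

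The terminal genes C6, C7, C8a, C8b, C8g and C9 encode the proteins of the membrane attack complex, and 0 of 6 passed by the probe that stands for each gene. C6 had lower means on HFD in all 3 genotypes, by 0.91 in wild-type, 1.42 in Cpa3Cre/+ and 0.96 in KitW/Wv mice, with SE of 0.67, 0.60 and 0.60 and adjusted p-values of 0.538, 0.178 and 1. On Cpa3Cre/+ arrays C6 stood at 8.19, 10.43 and 9.74 on LFD and at 7.79, 7.90 and 8.40 on HFD, so the diets overlapped. A dimmer C6 probe fell by 1.71 in Cpa3Cre/+ mice, with no overlap between diets, at an adjusted p of 0.0483 over all probes. C7 was the most variable, with 9.77, 6.13 and 7.25 on KitW/Wv LFD arrays and 5.19, 8.45 and 5.52 on KitW/Wv HFD arrays. On HFD C7 was 2.35 lower in KitW/Wv than in wild-type mice (SE 0.99, adjusted p = 0.28). C8b, the beta chain of C8, differed between diets by -0.14, -0.58 and 0.14 in wild-type, Cpa3Cre/+ and KitW/Wv mice, all short of the threshold. C9 differed by 0.26, 0.26 and -0.72 by its brightest probe, and a dim C9 probe, above background on 6 arrays, fell by 0.61 in Cpa3Cre/+ mice (adjusted p = 0.0251), so the C9 probes disagree.

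Serping1 encodes the C1 inhibitor, which inactivates C1r, C1s and MASP proteases as well as plasma kallikrein, and it rose on HFD in wild-type and Cpa3Cre/+ mice. On wild-type arrays its log2 levels were 12.40, 12.37 and 12.68 on LFD and 13.28 and 13.16 on HFD. On Cpa3Cre/+ arrays Serping1 stood at 12.27, 12.56 and 12.22 on LFD and at 13.02, 12.91 and 12.97 on HFD. Serping1 on KitW/Wv arrays stood at 12.81, 12.38 and 12.62 on LFD and at 12.64, 12.61 and 12.64 on HFD. The diets were separate in wild-type and Cpa3Cre/+ mice, and the KitW/Wv HFD arrays lay within the range of the KitW/Wv LFD arrays. The difference in Serping1 was 0.74 (SE 0.16, 1.67-fold, adjusted p = 0.0175) in wild-type mice, 0.61 (SE 0.15, 1.53-fold, adjusted p = 0.0152) in Cpa3Cre/+ mice and 0.02 (SE 0.15, adjusted p = 1) in KitW/Wv mice. Its second probe gave 0.72 (adjusted p = 0.0495) and 0.55 (adjusted p = 0.0673) in wild-type and Cpa3Cre/+ mice. The wild-type call was lost without either HFD array (adjusted p = 0.173 and 0.102), without LFD replicate 1 (0.0544) or 2 (0.0525) and when only wild-type arrays were fitted (0.163). The Cpa3Cre/+ call was lost without HFD replicate 1 (0.0598), without LFD replicate 1 (0.0504) or 3 (0.0657) and when only those 6 arrays were fitted (0.0896). Among markers of stromal progenitors, 1 of 8 rose in wild-type mice, 3 of 8 in Cpa3Cre/+ and 0 of 8 in KitW/Wv mice. Their summed intensity was 17330 to 19700 on LFD and 23500 to 24590 on HFD in wild-type mice, 18050 to 19100 and 18900 to 25020 in Cpa3Cre/+ mice, and 16440 to 19800 and 14810 to 20900 in KitW/Wv mice. Of all genes 3.44% rose in wild-type, 5.88% in Cpa3Cre/+ and 0.00583% in KitW/Wv mice. All 8 stromal markers were above background in every group, and their part in the Serping1 difference was not tested.

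The other soluble inhibitors measured were factor I (Cfi), which cuts C3b and C4b, and vitronectin (Vtn), which binds the nascent membrane attack complex. Neither passed. Cfi ranged from 4.56 to 8.27 and Vtn from 8.14 to 10.40. On HFD Cfi stood at 5.61 ± 1.47 (SD, n = 3) in KitW/Wv mice and at 7.62 ± 0.55 (SD, n = 3) in Cpa3Cre/+ mice, a difference of -2.01 (SE 0.93, adjusted p = 0.234).

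Among the membrane inhibitors, decay-accelerating factor (Cd55) takes convertases apart and Cd59a blocks the assembly of C9. Both were measured on all arrays and 0 of 2 passed. Cd59a had higher HFD means in wild-type and Cpa3Cre/+ mice, by 0.66 (SE 0.23, adjusted p = 0.127) and 0.64 (SE 0.20, adjusted p = 0.069), and by 0.34 (SE 0.20, adjusted p = 1) in KitW/Wv mice. The diets did not overlap for Cd59a in any of the 3 genotypes. A related gene, Cd59b, has its own tested probe, and whether the Cd59a probe also reads Cd59b was not checked. Cd55 differed by 0.90 (SE 0.44), 0.20 (SE 0.39) and 0.35 (SE 0.39) in wild-type, Cpa3Cre/+ and KitW/Wv mice, with adjusted p-values of 0.313, 0.845 and 1.

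Cd93, a transmembrane protein of endothelium and myeloid cells once described as a C1q receptor, rose on HFD in Cpa3Cre/+ mice. On wild-type arrays its log2 levels were 9.34, 9.40 and 9.04 on LFD and 10.09 and 10.08 on HFD. On Cpa3Cre/+ arrays Cd93 stood at 9.34, 8.82 and 9.36 on LFD and at 10.49, 10.14 and 9.84 on HFD. On KitW/Wv arrays Cd93 stood at 9.93, 9.39 and 9.51 on LFD and at 9.25, 10.03 and 9.47 on HFD. The diets overlapped in KitW/Wv mice and did not in the others. The Cd93 difference was 0.98 (SE 0.24, 1.98-fold, adjusted p = 0.0159) in Cpa3Cre/+ mice, 0.82 (SE 0.26, adjusted p = 0.0983) in wild-type mice and -0.02 (SE 0.24, adjusted p = 1) in KitW/Wv mice. Its second probe gave 0.75 in Cpa3Cre/+ mice (adjusted p = 0.115). The call was also lost without HFD replicate 1 (adjusted p = 0.0833) or 2 (0.0519), without LFD replicate 2 alone (0.0652) or with the other 2 arrays that carried markers of other tissues (0.0507), and when only those 6 arrays were fitted (0.0734). Of 8 endothelial markers 0 passed in any of the 3 diet comparisons, and their summed intensity was 5959 to 11260 on LFD and 8967 to 11790 on HFD in Cpa3Cre/+ mice. It was 7933 to 11100 and 11930 to 12580 in wild-type mice and 7858 to 11940 and 9064 to 13870 in KitW/Wv mice. By group means the macrophage markers given above were also higher on HFD in wild-type and Cpa3Cre/+ mice. On single KitW/Wv HFD arrays, with Cd93 at 9.25, 10.03 and 9.47, endothelial markers deviated by -0.21, 0.45 and 0.04 from average. Macrophage markers deviated by -0.10, -0.18 and -0.15 there. On Cpa3Cre/+ HFD arrays, with Cd93 at 10.49, 10.14 and 9.84, the endothelial deviations were 0.01, -0.11 and -0.02. The macrophage deviations there were 1.18, 1.31 and 1.29. The part of either cell type was not tested.

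C1qbp, which binds the globular heads of C1q and resides mainly in mitochondria, was higher in KitW/Wv than in Cpa3Cre/+ mice on HFD. Wild-type arrays had C1qbp at log2 levels of 9.44, 9.77 and 9.54 on LFD and 9.22 and 9.17 on HFD. On Cpa3Cre/+ arrays C1qbp stood at 9.23, 9.40 and 9.77 on LFD and at 9.01, 8.73 and 9.31 on HFD. C1qbp on KitW/Wv arrays stood at 9.56, 9.81 and 9.67 on LFD and at 9.77, 9.42 and 9.94 on HFD. On HFD the KitW/Wv arrays lay above the others, the nearest pair being 9.42 and 9.31. The difference from Cpa3Cre/+ mice was 0.69 (SE 0.19, 1.62-fold, adjusted p = 0.0378) and from wild-type mice 0.52 (SE 0.21, adjusted p = 0.27). It was lost in 7 of 14 other settings, with median scaling (0.44, adjusted p = 0.0835), with only the groups compared (0.0916), without Cpa3Cre/+ HFD replicate 1 (0.104) or 2 (0.171), without KitW/Wv HFD replicate 1 (0.102) or 3 (0.162) and without the 3 arrays that carried markers of other tissues (0.112).

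The remaining receptors did not pass in any comparison. Vsig4, a macrophage receptor for C3b, had higher HFD means in all 3 genotypes, by 1.21 in wild-type (SE 0.47, adjusted p = 0.181), 0.57 in Cpa3Cre/+ (SE 0.42, adjusted p = 0.504) and 1.02 in KitW/Wv mice (SE 0.42, adjusted p = 1). It stood at 7.35, 7.26 and 8.26 on KitW/Wv LFD arrays and at 9.52, 7.85 and 8.57 on KitW/Wv HFD arrays, which overlap. For Vsig4 the mean difference in KitW/Wv mice was near that in wild-type mice, whereas for the C1q genes it was near 0, and the interaction of Vsig4 between KitW/Wv and Cpa3Cre/+ mice was 0.45 (95% confidence interval -0.81 to 1.71, adjusted p = 0.846). C5ar1, the receptor of the anaphylatoxin C5a, was above background on 13 arrays and differed by 0.97 in Cpa3Cre/+ mice (SE 0.31, adjusted p = 0.0697), 0.34 in wild-type and 0.40 in KitW/Wv mice. C3ar1, the receptor of C3a, was above background on 3 of 17 arrays, 2 of them Cpa3Cre/+ on HFD and 1 KitW/Wv on LFD, and stayed between 4.10 and 4.62.

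Between genotypes on HFD, 1 of 30 complement genes (C2, higher) passed for KitW/Wv against wild type, against 2.36% of all genes in either direction and 0.594% higher. For KitW/Wv against Cpa3Cre/+ 3 of 30 passed, all higher (C2, Fcna and C1qbp), against 7.87% in either direction and 3% higher. With median scaling the share of called genes that were higher in the latter comparison went from 38.1% to 16.4%, and the complement genes called were then C1qb and C1qc lower and C2 and Fcna higher. The median over the complement genes was -0.25 against wild type (22 of 30 below 0) and -0.44 against Cpa3Cre/+ (22 of 30 below 0), where all genes had medians of 0.01 and 0.00. Of all genes 51.3% and 50.5% were above 0. Mbl1, Mbl2, Masp2, C8a, C8g, C9, Vtn and Cfi were all below 0 in both comparisons. As described below, these genes varied together between single arrays, and their part in the medians was not tested. For Cpa3Cre/+ against wild type on HFD 0 of 30 passed, against 0.0408% of all genes, with 1 complement gene (C2) and 835 genes below an unadjusted p of 0.05 in limma. With median scaling the median over all genes moved by 0.11 there, and 5 of the 30 complement differences changed sign.

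On LFD no complement gene passed between genotypes. For KitW/Wv against wild type 0 of 30 passed, against 0.0466% of all genes, and 0 complement genes but 889 of all genes had an unadjusted p below 0.05 in limma. For KitW/Wv against Cpa3Cre/+ 0 of 30 passed, against 0% of all genes, and C1qa, C1qb, C1qc and Cfp were the 4 complement genes among 773 genes below an unadjusted p of 0.05. For Cpa3Cre/+ against wild type 0 of 30 passed, against 0.035% of all genes, and C1qb was the 1 complement gene among 594.

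**Figure D3:**
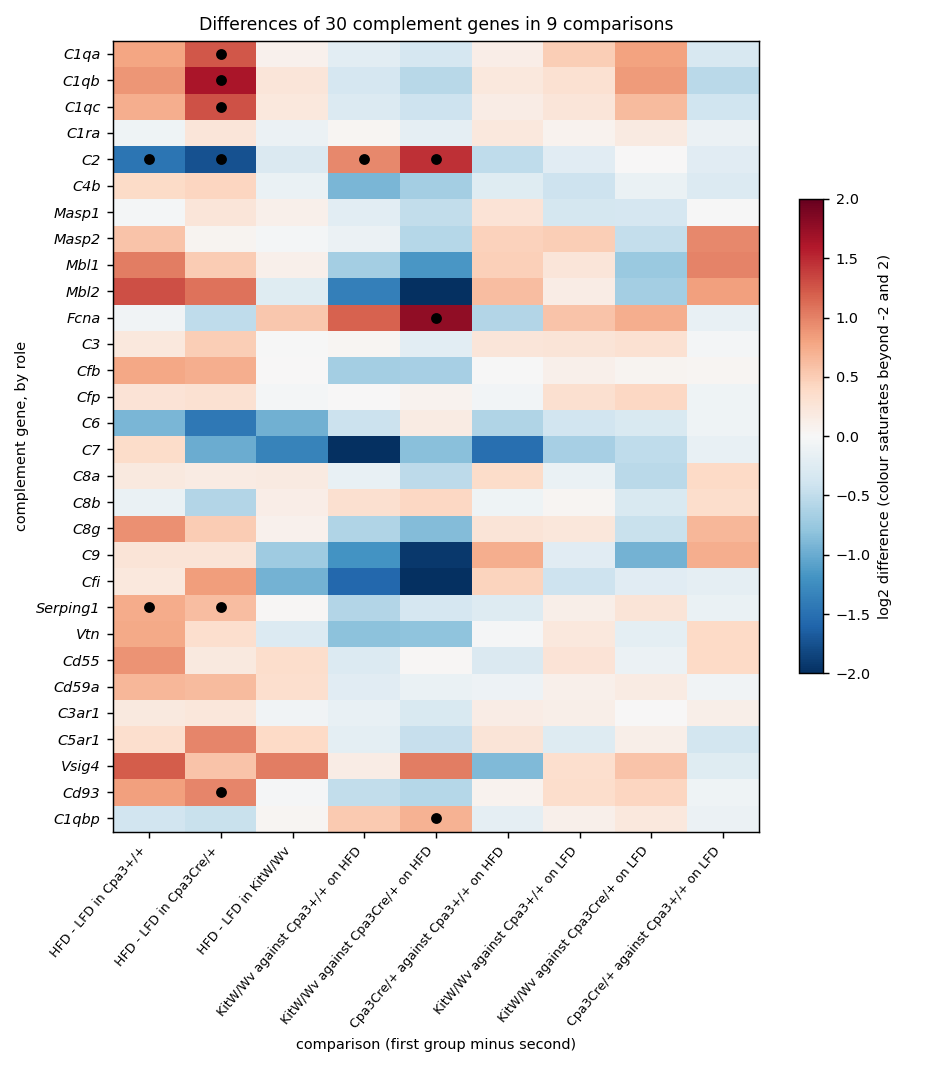
Log2 differences of the 30 complement genes (rows, ordered by role) in 9 comparisons of 2 groups (columns, first group minus second); red is higher, blue is lower, colour saturates beyond -2 and 2, and a black dot marks an adjusted p below 0.05. C2 carries dots in 4 columns, lower on HFD in Cpa3+/+ and Cpa3Cre/+ mice and higher in KitW/Wv mice on HFD, and the 3 columns on LFD carry none.

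A group of 8 complement genes varied together between single arrays rather than between groups. They are Mbl1, Mbl2, Masp2, C8a, C8g, C9, Vtn and Cfi, all known as products of the liver, and the 8 were picked after their values were seen, so they are described without a test. C3, C4b, C6 and C8b were not among those picked, so the 8 do not stand for all complement genes made in liver. On the KitW/Wv HFD arrays C8b lay between 7.74 and 8.02, where C8g lay between 7.37 and 9.31. Over 17 arrays the 28 pairs among the 8 had Pearson r of 0.61 to 0.96, with a median of 0.87, and of 0.90 after group means were removed. All 8 lay above their own 17-array means on wild-type LFD replicate 1 and HFD replicate 1, on Cpa3Cre/+ LFD replicates 2 and 3 and all 3 HFD arrays, and on KitW/Wv LFD replicate 3 and HFD replicate 1. None of the 8 did on wild-type LFD replicate 2 and HFD replicate 2, Cpa3Cre/+ LFD replicate 1, KitW/Wv LFD replicate 2 and KitW/Wv HFD replicates 2 and 3. The 2 remaining arrays had 1 of 8 (Cfi, wild-type LFD replicate 3) and 2 of 8 (KitW/Wv LFD replicate 1) above. Groups therefore mix arrays of both kinds, except Cpa3Cre/+ on HFD, whose 3 arrays were all high.

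Liver markers followed the same arrays. Their mean deviation, over 7 of 8 listed markers, was 0.80 to 1.44 on the 9 arrays where all 8 complement genes were high and -2.16 to -0.65 on the 6 where none was. Apoa1 ranged from 7.47 to 12.47, Apoa2 from 7.16 to 13.41, Ttr from 7.78 to 12.64, Ahsg from 6.55 to 10.76 and Serpina1a from 5.26 to 9.76 over the 17 arrays. Alb, which encodes serum albumin, was dim, but it separated the same arrays, with 4.98 to 5.80 on the 9 where all 8 complement genes were high and 4.14 to 4.57 on the 6 where none was. Hp, which adipose tissue itself makes, ranged from 13.29 to 14.24. The summed intensity of the 7 markers was 19800 to 35320 on LFD and 21270 to 41390 on HFD in wild-type mice, 19470 to 38490 and 34050 to 36860 in Cpa3Cre/+ mice, and 15030 to 28330 and 11770 to 27300 in KitW/Wv mice. Hp was the brightest of the 7 on every array, so the low ends of these sums are mostly Hp and not the other markers. Each of the 7 was above background on some array of every group, and the part of liver-type transcripts in the differences of these 8 complement genes was not tested. The called genes did not belong to this group of 8.

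**Figure D4:**
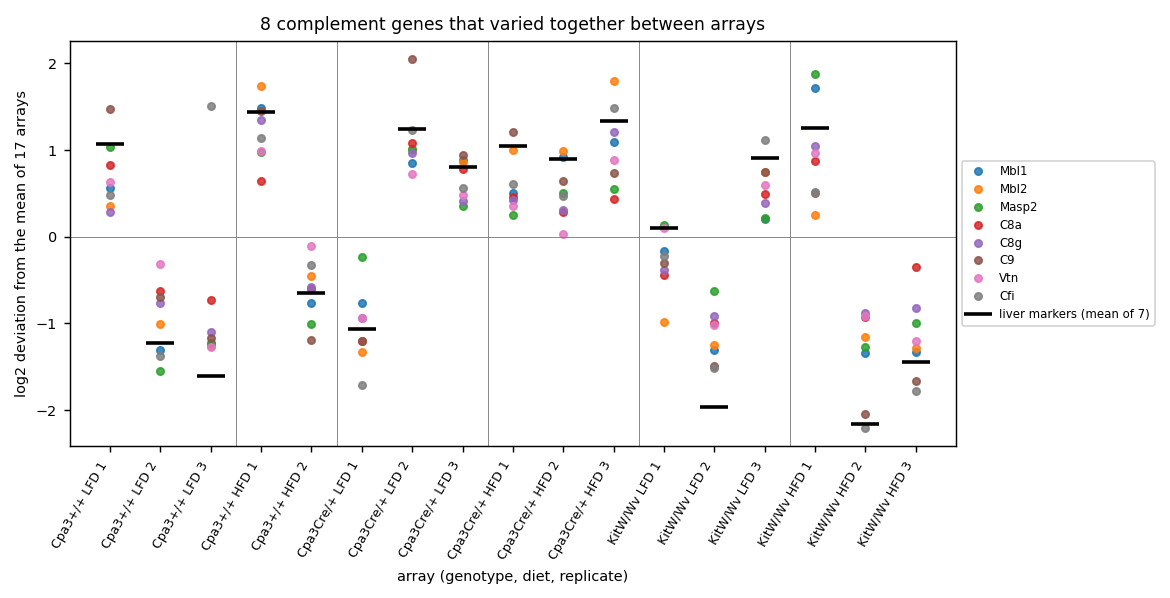
Deviation of 8 complement genes from their 17-array means (coloured points, log2 scale, y axis) on each array (x axis: genotype, diet, replicate), with the mean deviation of 7 liver markers as a black bar; vertical lines separate the 6 groups. All 8 genes are above 0 on 9 arrays and all are below 0 on 6, and the bar runs from -2.16 to 1.44 with them.

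Beyond the 34 genes, 27 further genes of the pathway were listed and 23 were tested. On HFD against LFD, 2 of 23 rose (Itgax and Itgb2) and 1 fell (Thbd) in wild-type mice, the same genes by name in Cpa3Cre/+ mice, and 0 of 23 passed in KitW/Wv mice. Itgax passed the filter on dim probes only through the wild-type and Cpa3Cre/+ HFD arrays. The direction of its change was set by that filter, so Itgax adds nothing to these counts. Of all genes 3.44% rose and 1.21% fell in wild-type mice, and 5.88% rose and 3.21% fell in Cpa3Cre/+ mice. In KitW/Wv mice 0.00583% of all genes passed. Itgax and Itgb2 encode the alpha and beta chains of complement receptor 4, and Itgax is also on the macrophage list. Itgb2 had log2 levels of 5.40, 5.44 and 5.38 on wild-type LFD arrays and 6.79 and 6.92 on HFD arrays. On Cpa3Cre/+ arrays Itgb2 stood at 5.22, 4.93 and 5.06 on LFD and at 7.67, 7.66 and 7.32 on HFD. On KitW/Wv arrays Itgb2 stood at 5.72, 5.21 and 5.75 on LFD and at 6.28, 5.68 and 6.00 on HFD. The diets did not overlap in wild-type and Cpa3Cre/+ mice and overlapped in KitW/Wv mice. Its diet difference was 1.45 (SE 0.20, adjusted p = 0.000875), 2.48 (SE 0.18, adjusted p = 1.24e-06) and 0.42 (SE 0.18, adjusted p = 1) in wild-type, Cpa3Cre/+ and KitW/Wv mice. With the authors' normalized values the Itgb2 differences were smaller, 0.67 (adjusted p = 0.00115) in wild-type and 1.25 (adjusted p = 9.74e-07) in Cpa3Cre/+ mice.

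Itgax was not above background on any LFD array or on KitW/Wv HFD arrays, at 4.14 to 4.50, and passed the filter on dim probes only through the wild-type and Cpa3Cre/+ HFD arrays. Its folds are therefore lower bounds against the dimmest detected signal, for this probe and this background estimate. It was at least 3.32-fold higher on HFD in wild-type mice and at least 4.97-fold higher in Cpa3Cre/+ mice. On HFD Itgax was at least 3.24-fold higher in wild-type and at least 4.9-fold higher in Cpa3Cre/+ mice than in KitW/Wv mice. The direction of these differences was set by the filter, so no p-value is given for them. Other settings gave smaller sizes for Itgax. A second Itgax probe differed by 0.55 (adjusted p = 0.0598) between diets in wild-type mice and by 0.63 (adjusted p = 0.00878) in Cpa3Cre/+ mice on the log2 scale, both below those bounds. On HFD the second probe differed by -0.39 (adjusted p = 0.257) between KitW/Wv and wild-type mice and by -0.56 (adjusted p = 0.0224) between KitW/Wv and Cpa3Cre/+ mice. With the authors' normalized values the brighter Itgax probe differed by 0.64 and 0.96 between diets in wild-type and Cpa3Cre/+ mice, and by -0.62 and -0.94 between KitW/Wv and these genotypes on HFD, and with offset 50 by 0.96, 1.38, -0.93 and -1.36.

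Thbd, thrombomodulin, which with thrombin activates the enzyme that inactivates C3a and C5a, fell by 0.87 in wild-type (SE 0.20, adjusted p = 0.0197) and by 1.45 in Cpa3Cre/+ mice (SE 0.18, adjusted p = 8.85e-05). The wild-type call of Thbd was lost with median scaling (adjusted p = 0.0506), with only those arrays (0.0996), without HFD replicate 1 (0.143) or 2 (0.147) and without LFD replicate 2 (0.0502). Thbd in KitW/Wv mice differed by -0.53 (SE 0.18, adjusted p = 1), with no overlap between diets. On HFD, Itgb2 was lower in KitW/Wv than in wild-type mice by 0.87 (-0.87, SE 0.20, adjusted p = 0.0392) and than in Cpa3Cre/+ mice by 1.57 (-1.57, SE 0.18, adjusted p = 0.000142). Against wild type the Itgb2 call was lost with median scaling (adjusted p = 0.102), with only those arrays (0.0911), with the replicate number as a block (0.0528), without wild-type HFD replicate 1 (0.221) or 2 (0.266) and without KitW/Wv HFD replicate 2 or 3 (0.115 for each). With the authors' normalized values the Itgb2 differences on HFD were -0.44 and -0.91. C1rl, a relative of C1r, was also lower in KitW/Wv than in Cpa3Cre/+ mice there (-0.90, SE 0.21, adjusted p = 0.0184), and Thbd was higher (0.94, SE 0.18, adjusted p = 0.0042). With the authors' normalized values C1rl differed by -0.47 (adjusted p = 0.0098). For C1rl the call was lost with its other probe (adjusted p = 0.225), without Cpa3Cre/+ HFD replicate 2 (0.0819) and without KitW/Wv HFD replicate 2 (0.0782) or 3 (0.0517). Over the 23 genes the median diet difference was 0.25, 0.14 and -0.08 in wild-type, Cpa3Cre/+ and KitW/Wv mice.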

How the data were processed

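The authors deposited a non-normalized intensity (linear scale) and a detection p-value for each of 46237 probes on 17 arrays, which were processed with GenomeStudio per the submitters' processing notes, version not given. The authors also deposited a normalized intensity by a method not given in the sources used here, used as an alternative. Deposited detection p-values and intensities rank probes differently (3401 to 7393 detected probes per array were dimmer than the brightest undetected one), and background, detection and lower bounds rest on them as deposited. No other columns of values were left unused (0). No genome build is given for the array.

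Background was estimated from the detection p-values (neqc, offset 16), followed by quantile normalization and a log2 transform in limma 3.58.1 in R 4.3.3; figures used Python 3.11.15 with matplotlib 3.10.9. The platform annotation named 35784 probes with 1 symbol each and 10453 with none, and 28620 probes matched RefSeq names by Entrez ID. The filter kept 25594 probes whose detection p-value was under 0.05 on 2 or more arrays, and the brightest probe on average stood for its gene. One fit with 6 group means gave 9 comparisons of 2 groups and 3 interactions (two-sided moderated test, 11 residual and 3.35 prior degrees of freedom). A lower bound sets the brighter group's mean against the higher of each dim value and the lowest detected signal of its array (log2 4.33 to 4.42). Replicate numbers were not treated as pairs, since the labels give them no shared source. Correlations between arrays of the deviations from group means do not decide the matter, and a replicate block was among the alternatives. Of 40 pairs of arrays with the same number in different groups 16 were above 0.1 (median r 0.07), and of 80 with different numbers 21 were (median r -0.03). The closest pair of arrays differed by 0.38 (root mean square, log2), so none was counted as a duplicate. The fit was tested on simulated data.

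All complement genes are reported, with every array's value where a gene passed in any comparison. The rule for the complement genes uses symbols and no measured value, but these genes and all lists were chosen with earlier results of these data known, so no choice was blind to them. Marker lists of mesothelium, neutrophils, mast cells and red blood cells were also summed: the mast cell list stood 1.13 to 1.73 above average on wild-type arrays and -0.84 to -0.45 elsewhere, and the other 3 ranged over -0.75 to 1.32, -1.02 to 0.98 and -1.81 to 1.85. Alternatives were median scaling, the authors' normalized values, offset 50, no or a stricter filter (detection p below 0.01 on 3 arrays), every probe tested, only the groups compared, a replicate block and leaving out each array. Leaving out the 3 arrays with markers of other tissues (epididymis and testis, or skeletal muscle) together was chosen after seeing the data. That setting kept other arrays with high liver markers, among them all 3 Cpa3Cre/+ HFD arrays. The number of arrays limits the precision.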

Additional observations from a re-analysis of the deposited data

Results flagged for a closer look

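The effect of the diet differed between genotypes for 4 genes of the complement pathway, by the interaction test of limma, 1 of them (Itgax) not above background in 4 of 6 groups. The direction for Itgax was set by the filter on dim probes, so Itgax adds nothing to this count. The 4 genes were found among the 30 complement genes and 23 further genes of the pathway that were tested. Of all genes 2.54% passed this test for KitW/Wv against Cpa3Cre/+ mice and 0.891% for KitW/Wv against wild-type mice. C2 differed between KitW/Wv and Cpa3Cre/+ mice by 1.46 on the log2 scale (SE 0.25, adjusted p = 0.0047), with the 3 KitW/Wv HFD arrays at 11.01 to 11.43 and the 3 Cpa3Cre/+ HFD arrays at 9.60 to 10.02. C1qb differed by -1.40 (SE 0.31, adjusted p = 0.0243), a call lost in 8 of 20 other settings, with adjusted p up to 0.0687. Itgb2 differed by -2.06 (SE 0.26, adjusted p = 0.000667), and by -1.08 (adjusted p = 0.000215) with the authors' normalized values. For Itgax the fitted values were -2.59 between KitW/Wv and Cpa3Cre/+ mice and -2.01 between KitW/Wv and wild-type mice. Its probe was not above background in the 3 LFD groups or in KitW/Wv mice on HFD and passed the filter only through the other 2 HFD groups, so these are not measured sizes and depend on the background estimate. With the authors' normalized values they were -1.03 and -0.71. A second Itgax probe gave -0.45 (adjusted p = 0.353) and -0.36 (adjusted p = 0.573).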

How the results depend on the processing

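Of 193 recomputed counts of complement genes past the threshold, 157 stayed within 1.5 times and 36 moved. For the diet in wild-type mice the count of 2 became 5 with median scaling, 4 with the authors' normalized values, 4 with offset 50 and 1 with only the groups compared, and it was 1 to 2 with single arrays left out. In Cpa3Cre/+ mice the count of 6 became 3 with only the groups compared and was 4 to 7 with single arrays left out. In KitW/Wv mice it was 0 to 0. For KitW/Wv against wild type on HFD the count of 1 became 2 with the authors' values, with offset 50 and with no filter, and 0 with only the groups compared, and it ranged over 0 to 1. Against Cpa3Cre/+ on HFD the count of 3 became 1 without the 3 arrays that carried markers of other tissues and ranged over 1 to 3. The interaction of KitW/Wv with wild type gained 1 gene (C2) with the authors' values, with offset 50, with no filter and without those 3 arrays, and ranged over 0 to 1. With Cpa3Cre/+ the count of 2 became 4 with median scaling and 1 with only the groups compared, and ranged over 1 to 3. The other comparisons stayed at 0 with each array left out. Why these counts moved was not tested, though settings with fewer arrays have less data for the spread.

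Over all genes, the wild-type diet count of 799 fell to 127 with only those arrays and to 227 and 244 without HFD replicates 1 and 2, and the Cpa3Cre/+ count of 1560 fell to 769 with only those arrays and to 947 without HFD replicate 2. For KitW/Wv on HFD the counts of 405 and 1351 fell to 63, 81, 168 and 269 without wild-type HFD replicate 1 or 2 and KitW/Wv HFD replicate 3 or 1, and to 830, 682 and 723 without Cpa3Cre/+ HFD replicate 1 or 2 and KitW/Wv HFD replicate 3. The interaction with wild type gave 27 to 194 genes, against 153, with single arrays left out (lowest without wild-type HFD replicate 1) and 315 without the 3 arrays that carried markers of other tissues. Of 437 recomputed calls of named genes 376 were kept, 61 were lost and 0 turned direction. With the replicate number as a block, the complement counts were 2 and 6 for the diet in wild-type and Cpa3Cre/+ mice, unchanged like the other 10, and of named genes only Itgb2 lost a call, on HFD against wild type (-0.87, adjusted p = 0.0528), where all genes counted 317 against 405. For the interaction with wild type they counted 97 against 153.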
